A study of Arabidopsis thaliana with 4 samples.

Results

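STOMAGEN (AT4G12970, probe set 254794_at) and GIS (AT3G58070, probe set 251586_at) are 2 genes that act on the pattern of epidermal cells, and each was read by 1 probe set annotated to that gene alone. They are 2 of 13286 genes that could be named from such probe sets. Transcripts were measured on 4 microarrays with 22810 probe sets each, with RNA of Arabidopsis thaliana shoots (aerial parts, plants 2 weeks old). Columbia plants served as control (2 arrays), and the mutant was jaw-D, labelled jaw-d, an activation-tagged line (2 arrays). In jaw-D the tag is known to raise the microRNA miR319a, which lowers several leaf-growth-restraining TCP transcription factors. All jaw-D samples stand for this 1 line, and its zygosity and parental background are not stated in the labels. Whether the 2 samples of each group were separate plants or cultures is not stated either, so every p-value rests on a spread between arrays that may be technical.

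Stomata and trichomes, the pores and hairs of the leaf surface, both arise from the protoderm. STOMAGEN, also named EPFL9, is a small secreted cysteine-rich peptide of the EPF family. It is made mainly in the inner leaf tissue, moves to the epidermis and promotes stomata by competing with the inhibitory peptides EPF1 and EPF2 for receptors of the ERECTA family and TMM. GIS, GLABROUS INFLORESCENCE STEMS, is a C2H2 zinc finger transcription factor that promotes the start of trichomes on inflorescence organs in response to gibberellin, upstream of the trichome activator complex.

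Both genes had lower values in jaw-D on every array, and neither passed the test across all probe sets. The STOMAGEN means were 7560 ± 194 units for control and 5589 ± 701 units for jaw-D, and those of GIS were 1732 ± 147 and 1021 ± 22.9 units (quantile-normalised intensity, SD, n = 2 each). The jaw-D mean was 73.9% of control for STOMAGEN and 58.9% for GIS. Their adjusted p were 0.0826 and 0.0548 (limma with Benjamini-Hochberg adjustment over 22746 probe sets), against a threshold of 0.05. With this test 0 of the 2 genes were called lower, where 2.54% of all probe sets were called lower and 1.64% higher.

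The deposited STOMAGEN intensities were 7623 and 7517 units on control arrays 1 and 2, and 5151 and 6055 units on jaw-D arrays 1 and 2. After quantile normalization, which gives all arrays the same distribution of values, they were 7698, 7423, 5093 and 6085 units in the same order. The control arrays lay close together and both above the jaw-D arrays, which lay further apart. The lower control value exceeded the higher jaw-D value by 1.22-fold, while the jaw-D arrays differed from each other by 1.19-fold and the control arrays by 1.04-fold. The gap between the groups was thus barely wider than the gap between the jaw-D arrays. On the log2 scale, with a pseudocount of 302.3 units added to each intensity, the difference of jaw-D from control was -0.42 ± 0.10 (SE), with a 95% interval of -0.67 to -0.18. The pseudocount makes this difference smaller than that of the intensities themselves, the more so for dim probe sets.

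For GIS the deposited intensities were 1585 and 1755 units in control and 1044 and 1081 units in jaw-D. The normalised values were 1629 and 1836 units in control and 1005 and 1037 units in jaw-D. Both jaw-D values again lay below both control values, and the arrays within a group lay closer together than the groups. The closest pair of a control and a jaw-D array differed by 1.57-fold, against 1.13-fold between the control arrays and 1.03-fold between the jaw-D arrays. The log2 difference was -0.62 ± 0.12 (SE), with a 95% interval of -0.92 to -0.32. Both intervals left out 0, but neither p held after adjustment, from unadjusted values of 0.00590 for STOMAGEN and 0.00252 for GIS in limma. Whether GIS changed more than STOMAGEN was not tested.

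Groups that do not overlap are common with 2 arrays a side: 23.6% of all probe sets had both jaw-D values below both control values, and 25.5% had both above. An exact two-sided permutation test over the 4 arrays gave p = 0.333 for either gene, the smallest value that 2 against 2 arrays allow. Both genes were well above the background of the arrays, taken as 353 units, the highest value of the 27 probe sets for Bacillus subtilis transcripts. Their lowest deposited intensities were 14.6 times that level for STOMAGEN and 2.96 times for GIS.

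**Figure D1:**
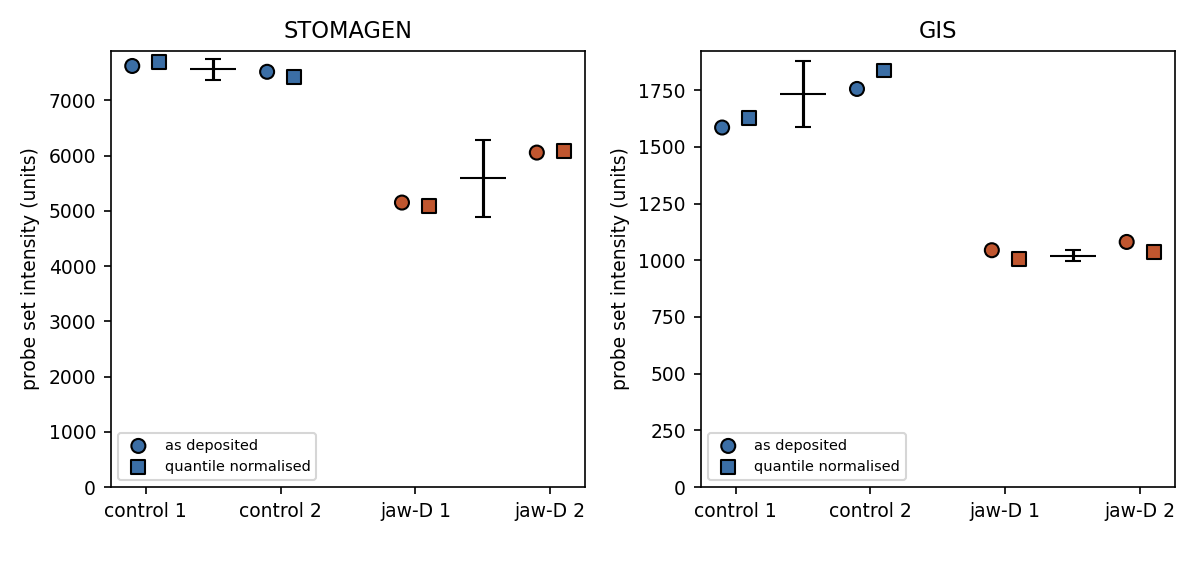
Intensity (units, linear axis from 0) of the STOMAGEN and GIS probe sets on each array, with circles for deposited and squares for quantile-normalised values, blue for control and orange for jaw-D, and a bar with whiskers for the mean ± SD of the normalised values (n = 2). The jaw-D arrays lie below the control arrays for both genes, and the jaw-D pair is wider apart for STOMAGEN (5093 and 6085 units) than for GIS (1005 and 1037 units).

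Set among all probe sets, GIS had the more extreme position. Of 22746 probe sets, 400 had a lower difference than GIS and 1150 a lower one than STOMAGEN. Among the 3887 other probe sets whose mean intensity was within 0.5 log2 units of that of GIS, 80 (2.06%) had a difference as low, and 58 (1.49%) were called lower. Among the 1957 probe sets of the brightness of STOMAGEN, 180 (9.20%) had a difference as low and 155 (7.92%) were called lower. These shares describe the arrays and are no test. A difference as low as that of STOMAGEN was thus less unusual among probe sets of its brightness than the difference of GIS was among those of similar brightness to GIS.

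**Figure D2:**
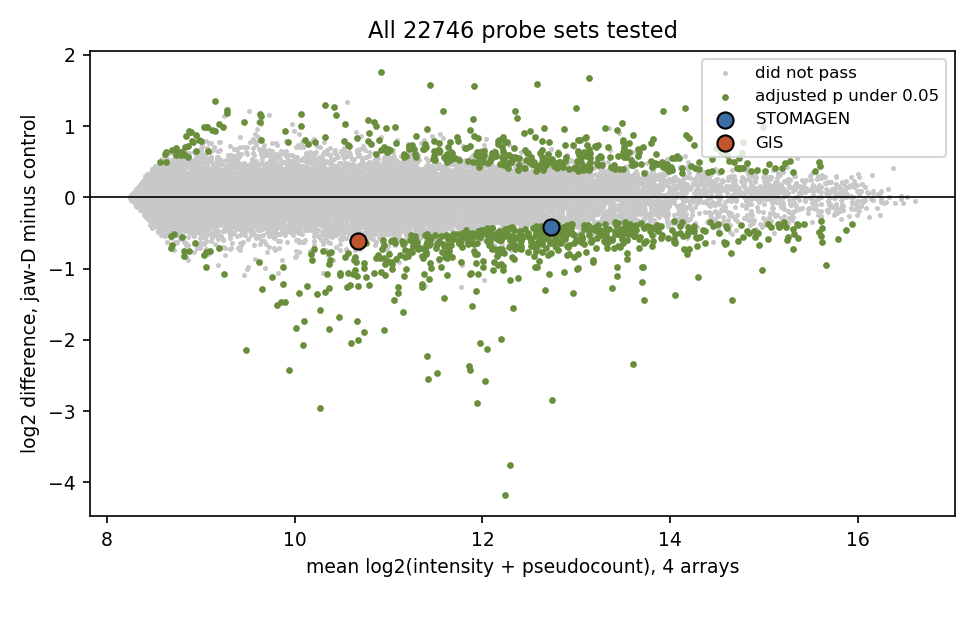
Log2 difference of jaw-D from control against the mean log2(intensity + pseudocount) over 4 arrays for 22746 probe sets, each a dot, green where the limma adjusted p is under 0.05. STOMAGEN (blue, -0.42) and GIS (orange, -0.62) lie at the inner edge of the probe sets called lower.

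The side of the threshold depended on the processing. The difference was negative in all 11 alternative settings for both genes. It ran from -0.54 to -0.30 for STOMAGEN and from -0.74 to -0.40 for GIS. Only the deposited values and the centring on the median could have turned the sign. All other settings used the normalised values, in which both jaw-D arrays lay below both control arrays. Both genes passed in limma with each array centred on its own median, at adjusted p of 0.0337 for STOMAGEN and 0.0458 for GIS, a setting in which 4.3% of all probe sets were called lower. They also passed when probe sets at or under background were left out, at 0.0216 and 0.00691, where 7% of the 16439 remaining probe sets were called lower. GIS passed too with the pseudocount at 0.1 times its value (adjusted p 0.0382, 3.24% of all called lower). With any 1 array left out, the difference was -0.54 to -0.30 for STOMAGEN and -0.69 to -0.55 for GIS. Those fits leave 1 array in a group and cannot show whether either gene in particular would pass.

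**Figure D3:**
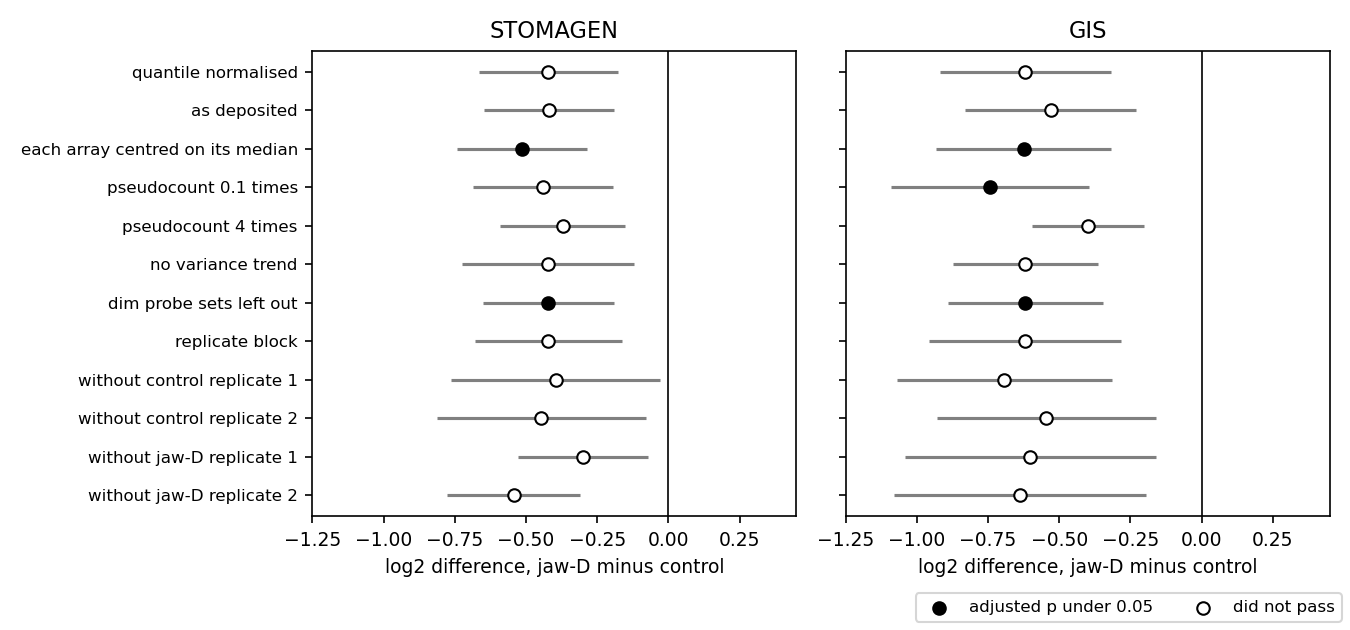
Log2 difference of jaw-D from control for STOMAGEN and GIS (horizontal axis) under the main setting and 11 alternatives, with bars for the 95% interval of limma and filled circles where the adjusted p is under 0.05. Every point lies below 0, and filled circles stand at 2 settings for STOMAGEN and 3 for GIS.

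Of the 32 genes in the list for stomatal development, 4 had a probe set that could be named. None of the 4 passed, where 1.64% of all probe sets were called higher and 2.54% lower. Of the 4, 3 had a negative and 1 a positive difference. The list's median was -0.22, beside 0.01 over all probe sets, but it includes STOMAGEN itself. Among the 3 others the middle difference was that of MUTE, -0.03. The other 28 genes, among them the peptides EPF1 and EPF2 and the receptor gene TMM, were not analysed here. The 3 measured beside STOMAGEN are the basic helix-loop-helix factors that act in turn in the stomatal lineage. SPCH, which starts the lineage, had control values of 1717 and 1917 units and jaw-D values of 2279 and 2026 units (log2 difference 0.21, adjusted p 0.384). MUTE, which ends the stem-cell-like divisions, had control values of 643 and 413 units and jaw-D values of 482 and 526 units (-0.03, adjusted p 0.962; its sign turned as deposited, at 0.01, without jaw-D 1, at 0.01, and without control 1, at 0.17). FAMA, listed as FMA, which sets guard cell identity, had control values of 2178 and 1866 units and jaw-D values of 1523 and 1360 units (-0.41 ± 0.12 SE, adjusted p 0.142).

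FAMA thus differed from control by about as much as STOMAGEN, with jaw-D values below both control values, as in 23.6% of all probe sets. SPCH lay on the other side of 0, also without overlap, as in 25.5% of all probe sets, and the MUTE arrays overlapped. None of these 3 factors passed the test, and differences between them were not tested. FAMA is also the measured member, 1 of 11, of the guard cell list. In whole aerial parts, fewer cells of a type and less RNA per cell cannot be told apart. STOMAGEN itself is the measured gene, 1 of 6, among the entries found by symbol or synonym for the EPF family.

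As STOMAGEN is made in the inner leaf, the mesophyll list was set beside it. Of its 14 genes 2 were measured, the antenna gene LHCB4.1 and RCA, rubisco activase, and neither passed (log2 differences -0.15 and -0.04). Their summed intensity was 147406 to 149652 units in control and 138104 to 139046 in jaw-D. Both genes of green tissue were thus far above background in these aerial parts. In the root list, 3 of 14 genes were measured, and their sum was 11726 to 13249 units in control and 26430 to 31315 in jaw-D. Most of this sum was PYK10, at 10858 and 12347 units in control and 30848 and 25423 in jaw-D. PYK10, a beta-glucosidase gene known from roots and seedlings, was called higher (log2 difference 1.25, limma adjusted p 0.0155). It was not called without the variance trend (0.0601), where 14 of 22746 probe sets were called higher. With any 1 array left out its difference was 1.11 to 1.39. The root hair expansin genes EXPA18 and EXPA7 had negative differences (-0.25 and -0.12) and did not pass, and the list's median was -0.12. The EXPA7 means were at background level (313 and 304 units), but its jaw-D arrays 1 and 2 lay far apart, at 87 and 520 units. Its difference turned to 0.42 without jaw-D array 1. The part of these shifts in the STOMAGEN and GIS values was not tested.

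Of the 35 genes in the trichome list, 5 had a probe set that could be named. Of these, 1 rose, 0 fell and 4 did not pass the test, where 1.64% of all probe sets were called higher and 2.54% lower. The differences were positive for 3 and negative for 2, with a median of 0.46 against 0.01 over all probe sets. The gene that rose was SPY, SPINDLY, an O-fucosyltransferase that holds back gibberellin signalling and thereby trichome formation. It went from 2173 and 2032 units in control to 3093 and 3246 in jaw-D (log2 difference 0.53 ± 0.09 SE, adjusted p 0.0406). The SPY call was lost in limma without the variance trend (adjusted p 0.0908) and with the replicate block (0.0769). In these settings 14 and 157 of 22746 probe sets were called higher. With any 1 array left out the SPY difference was 0.49 to 0.57.

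AN, ANGUSTIFOLIA, which governs trichome branching and leaf width, had control values of 2887 and 3266 units and jaw-D values of 4412 and 4261 units (log2 difference 0.46, adjusted p 0.0569). SIM, SIAMESE, an inhibitor of cyclin-dependent kinases that keeps trichomes single-celled, had control values of 2427 and 2558 units and jaw-D values of 3945 and 3192 units (0.46, adjusted p 0.101). For these genes, as for SPY, both jaw-D arrays lay above both control arrays, as in 25.5% of all probe sets, which is the opposite order to GIS. TRY, TRIPTYCHON, a small MYB protein that inhibits trichomes in neighbouring cells, had control values of 772 and 590 units and jaw-D values of 578 and 510 units (-0.21, adjusted p 0.542). Its arrays lay in the same order as those of GIS, as in 23.6% of all probe sets. The differences of the trichome genes thus did not share one sign.

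Since GIS acts in the gibberellin response, the gibberellin list was measured as well, with 5 of 25 genes. SPY, which belongs to both lists, was the 1 that rose, 0 fell, and the median was 0.08. Over all probe sets 1.64% were called higher and 2.54% lower. The other 4 did not pass: the receptor genes GID1A, GID1B and GID1C differed by 0.08, 0.00 and 0.11 on the log2 scale, and SLY1, an F-box protein gene for DELLA breakdown, by -0.05. In all 4 the arrays of the groups overlapped.

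A search by symbol or synonym for C2H2 zinc finger genes, made after the annotation had been seen, gave 20 entries, not each checked to be one. Of these, 6 were measured and 0 passed, where 1.64% of all probe sets were called higher and 2.54% lower. Differences were positive for 4 and negative for 2, with a median of 0.20. GIS, chosen as a member with earlier results known, had the lowest difference of the 6. STZ, a repressor of stress responses, had control values of 3880 and 4114 units and jaw-D values of 5042 and 5025 units (0.31, adjusted p 0.0900). JAG, JAGGED, which promotes growth of lateral organs, had control values of 283 and 458 units and jaw-D values of 765 and 648 units (0.59, adjusted p 0.144). NUB, the close relative of JAG, differed by 0.15 (-0.14 without jaw-D array 2), and RBE and TAC1 were near background in both groups. The relatives of GIS with the nearest known role in trichomes, GIS2 and ZFP8, had no named probe set and were not analysed here.

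**Figure D4:**
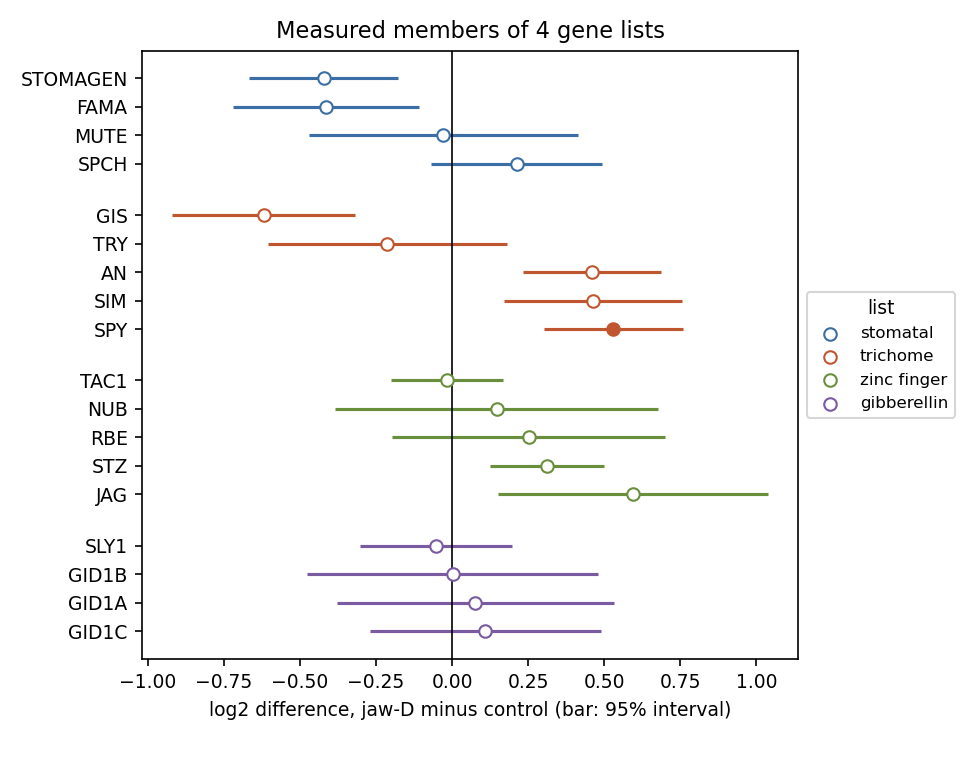
Log2 difference of jaw-D from control for the measured members of the stomatal, trichome, zinc finger and gibberellin lists (horizontal axis), with bars for the 95% interval and a filled circle for the adjusted p under 0.05 of SPY. GIS is shown once with the trichome genes and SPY likewise, and GIS (-0.62) lies opposite SPY (0.53), AN (0.46) and SIM (0.46).

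The genes whose profiles lay nearest to each member were found by Euclidean distance over the 4 arrays, between log2 values centred on each gene's mean, among 1231 genes with a symbol and a mean above background. Nearest to GIS were CML30, a calmodulin-like protein gene (distance 0.04), ECS1 (0.06), KICP-02 (0.07), the plastid ribosomal protein gene rpl33 (0.10) and AOR, an alkenal/one oxidoreductase gene (0.10), against a median distance of 0.66. Their log2 differences ran from -0.62 for CML30 to -0.56 for rpl33. All 5 passed the limma test (adjusted p 0.0192 for AOR to 0.0427 for CML30), where 2.54% of all probe sets were called lower. They were chosen for nearness to GIS on these same arrays, so their differences and calls are no separate finding. None passed without the variance trend (0.0775 to 0.0811), where 51 of 22746 probe sets were called lower. With any 1 array left out their differences ran from -0.69 for CML30 to -0.53 for rpl33. CML30 also missed the threshold as deposited (0.0532), with the pseudocount at 4 times its value (0.0530) and with the replicate block (0.0741), and KICP-02 with the block (0.0713). CML30 had control values of 2156 and 2414 units and jaw-D values of 1393 and 1369 units.

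Nearest to STOMAGEN were PyrD, a pyrimidine deaminase gene of riboflavin synthesis (distance 0.03), 4CL8 (0.05), OPCL1 of jasmonate synthesis (0.05), KIWI (0.05) and OTP84 (0.05), against a median of 0.51. Chosen in the same way, none of these 5 passed, where 2.54% of all probe sets were called lower. Their log2 differences were -0.46 to -0.40. They shared with STOMAGEN the lower value on jaw-D array 1 than on jaw-D array 2. PyrD had control values of 4940 and 4633 units and jaw-D values of 3242 and 3891 units. GIS and STOMAGEN lay 0.28 apart, so that STOMAGEN was the 61st nearest gene to GIS and GIS the 141st nearest to STOMAGEN. These distances use the same 4 arrays as the group differences and are a description.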

How the data were processed

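The deposited values are linear microarray intensities, 1 for each probe set on each array. The authors had scaled them to a common level before deposit, since the mean without the lowest and highest 2% is 2500 units on every array; no source used here names the software. The number of arrays limits the precision. The 64 control probe sets were left out, and 22746 were quantile normalised, log2 transformed with a pseudocount (the 25th percentile of all deposited values) and tested with limma (version 3.58.1, R 4.3.3; lmFit, eBayes with a mean-variance trend; 2 residual degrees of freedom), two-sided. The test was checked on simulated data in which the spread followed the mean-variance trend alone, without further differences between probe sets. That check required only that the largest planted changes be estimated at about their size. It does not show how exact the adjusted p are.

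Gene names came from the platform annotation and the TAIR10.1 gene table, used for names and gene order alone. List entries counted where that table holds the symbol at the locus. Where several probe sets named 1 gene, the brightest stood for it. Of the 22746 probe sets, 13513 named 1 gene, 503 could not be tied to 1 gene and 8730 had no annotation entry. A list gene called measured had a probe set that named it alone. The other list genes may still be on the array. Named are the members, the called genes and up to 6 genes with the smallest p of each list, and the 5 genes nearest each member. Members and lists were chosen with earlier results of these data known. Single-finger zinc finger proteins were to be found by protein motif; this was not run, and a list by symbol took its place. Searches by symbol or synonym for the HD-ZIP IV and KCS families gave 20 and 21 entries, of which 0 had a named probe set. The HD-ZIP IV entries are not that family alone, as they include PP2AA2. Of the epidermis and cuticle list 1 of 19 genes was measured, ACR4, listed as CR4 (log2 difference 0.22, adjusted p 0.624).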

Additional observations from a re-analysis of the deposited data

How the results depend on the processing

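The STOMAGEN and GIS differences were negative in all 11 alternatives. Only the deposited values and the centring on the median could have turned their signs. In limma STOMAGEN passed with arrays centred on their medians (-0.51) and with dim probe sets left out (-0.42); GIS passed in these settings (-0.62 in both) and with the pseudocount at 0.1 times (-0.74). Leaving out dim probe sets cuts the number tested to 16439 and raised the prior degrees of freedom from 3.75 to 9.67. Over all probe sets, 374 were higher and 578 lower (39.3% higher). The counts were 248 and 978 centred on the median (20.2% higher), 14 and 51 without the variance trend, and 1002 and 1150 with dim probe sets left out. With 1 array left out, higher calls ranged from 0 to 0 in limma (1641 to 2216 had an unadjusted p under 0.05). Lower calls ranged from 0 to 14, the 0 without control 1 or control 2 (1781 and 2166 unadjusted); the lone array of a group is then assumed to vary like the other group. STOMAGEN ranged from -0.54 to -0.30 and GIS from -0.69 to -0.55. Stomatal list calls rose from 0 to 1 centred on the median (STOMAGEN) and 2 with dim probe sets left out (STOMAGEN and FAMA). Trichome list calls were 2 as deposited (SPY and AN) and 2 centred on the median (SPY and GIS). They were 3 at 0.1 times the pseudocount, 4 with dim probe sets left out and 0 without the variance trend. Calls over all probe sets also moved. Of 22746, 486 were higher and 645 lower as deposited, and 525 and 738 at 0.1 times the pseudocount. With dim probe sets left out, 1002 of 16439 were higher and 1150 lower. Zinc finger calls were 1 centred on the median and 1 at 0.1 times the pseudocount (GIS both times), and 2 of 4 with dim probe sets left out: GIS, lower, and JAG, higher (0.59, adjusted p 0.0450). With the replicate number as a block there were 157 higher and 309 lower calls, 0 trichome list calls, and adjusted p of 0.109 for STOMAGEN and 0.0865 for GIS. Whether the numbers pair the samples is not stated in the labels. The replicate differences of the groups correlated at -0.02 across probe sets, which shows no shared shift but cannot decide whether samples were paired. The family by protein motif was not run. Causes were otherwise not tested.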

Other observations

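The 5 protein-coding genes on each side of STOMAGEN and of GIS in the reference gene order were looked up after the data had been seen. Beside STOMAGEN 7 of 10 were measured, and 1 was called lower, where 2.54% of all probe sets were. AT4G12980, the next gene in locus order, fell: its control mean was 3832 ± 32.6 units and its jaw-D mean 2161 ± 141 (SD over 2 arrays each). The log2 difference was -0.75 ± 0.09 (SE), and the limma adjusted p was 0.0217. The limma adjusted p of AT4G12980 was 0.0716 without the variance trend, where 51 of 22746 probe sets were called lower. With any 1 array left out its difference was -0.81 to -0.69. The gene after it, AT4G12990, was at 1358 ± 132 and 902 ± 35.1 units (-0.46, adjusted p 0.127). AT4G13000 and AT4G13010, further along, differed by -0.08 (adjusted p 0.834) and -0.15 (adjusted p 0.392). On the other side of STOMAGEN, the measured genes GILT, AT4G12930 and UND were near background. Beside GIS 5 of 10 were measured and 0 passed. AT3G58050 was at 2809 ± 620 and 2073 ± 104 units (-0.38, adjusted p 0.252), while AT3G58090 (0.15, adjusted p 0.697) and BZIP61 (0.28, adjusted p 0.551) had positive differences. AT3G58060, next to GIS (-0.01), and AT3G58020 (0.32) were near background.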
